A study of Mus musculus with 12 samples.

Results

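The genes described here are the enzymes of cholesterol and fatty acid synthesis with the regulators that set their transcription, measured in mouse embryonic stem (ES) cells given an inhibitor of MEK. They were chosen by name, from a list of 30 symbols, and all 30 were found among the 26742 genes of the deposited count table. They fall into 5 lists: 7 genes from acetyl-CoA to farnesyl diphosphate (Acat2, Hmgcs1, Mvk, Pmvk, Mvd, Idi1, Fdps), 11 from squalene to sterol (Fdft1, Sqle, Lss, Cyp51, Tm7sf2, Msmo1, Nsdhl, Hsd17b7, Ebp, Sc5d, Dhcr7), 4 regulators with a sterol carrier (Srebf1, Srebf2, Insig1, Stard4), 3 of fatty acid synthesis (Acly, Acaca, Fasn) and 5 of desaturation and elongation (Scd1, Scd2, Fads1, Fads2, Elovl6). The study's groups were male ES cells of genotype 129 given DMSO, 129 cells given the inhibitor, B6J cells given DMSO and B6J cells given the inhibitor, with 3 libraries in each and 12 in all. Every group was grown in serum with leukaemia inhibitory factor, and DMSO or 1 µM PD 0325901 was added daily until RNA was taken on day 5. The labels name no clone, so a difference between the genotypes cannot be told apart from one between the cell lines used. Whether replicates are separate cultures is not stated, so the p-values speak to library-to-library spread alone, and that spread may be technical.

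Cholesterol is built from acetyl-CoA through mevalonate, the isoprenoid farnesyl diphosphate and squalene, and fatty acids are built from the same acetyl-CoA through malonyl-CoA. Most of these enzymes are transcribed under SREBP factors, made by Srebf1 and Srebf2, which are held in the endoplasmic reticulum by Insig proteins while sterol is plentiful and are cut and sent to the nucleus when it runs low. Srebf2 mainly drives sterol genes and Srebf1 mainly drives fatty acid genes, and both bind sterol regulatory elements beside the CCAAT-box factor NF-Y. MEK activates ERK, and blocking MEK is a common way to hold mouse ES cells in a naive state.

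Library totals ran from 62634533 to 96341637 counts, and no member had fewer than 430 counts in any library (Tm7sf2), with a highest count of 77266 (Fasn). The inhibitor check showed 261 ± 63 CPM (SD, n = 3) of the immediate early gene Egr1 in 129 with DMSO and 8.19 ± 1.87 CPM with the inhibitor, and 149 ± 7.78 and 9.84 ± 1.37 CPM in B6J; CPM is a count scaled to one common library size after TMM adjustment. All 10 ES cell markers were detected, and so were all 20 fibroblast markers. In each group 1 library lay apart from the others: replicate 1 of 129 with DMSO, replicate 1 of 129 with the inhibitor, replicate 1 of B6J with DMSO and replicate 3 of B6J with the inhibitor. Their chi-square per degree of freedom against the others of the group was 44.57 to 185.1, against 7.166 to 27.86 between the remaining 2. Results are also given without these 4 libraries. They were picked as the most distant in the same data, so the spread left without them is narrow by choice. Numbers of genes called without them can therefore be larger through that choice alone. Replicate 1 of 129 with DMSO also held 6650 CPM of 14 primitive endoderm markers in sum, against 466 to 1310 CPM in the other 11 libraries. Of the 12 such markers that passed the filter on low counts, 5 were lower with the inhibitor in 129 and 1 in B6J. Over all tested genes 18.2% and 16.5% were lower. The sum in 129 was 6650, 466 and 467 CPM with DMSO and 1310, 824 and 821 CPM with the inhibitor. Only replicate 1 with DMSO thus lay above the treated libraries. The part of these markers in the results was not tested.

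Upstream sequence for 23 of the 30 genes was matched by symbol in a RefSeq table (GRCm38.p6) that gives 250 bases before and 50 bases after each start of transcription. For 4 genes at most 150 bases before the start are shown, without bases inside the annotated gene. They were picked because they differ in the letters tied to SREBP regulation. Hmgcs1, Sc5d and Insig1 fell with the inhibitor in at least 1 genotype, while Fasn was not called. The search covered the whole window, so an NF-Y box of Insig1 at -216 and those of Hmgcs1 at -237 and -176 lie outside the print. Capitals mark the sterol regulatory element core TCACNCCAC, the NF-Y box CCAAT and the E-box CACGTG, each searched on both strands, so a box on the other strand shows as its reverse complement; in Fasn a forward and a reverse NF-Y box overlap. The sequences run 5′ to 3′ on the strand of the gene.
Hmgcs1 (chr13:119690201-119690350, plus strand): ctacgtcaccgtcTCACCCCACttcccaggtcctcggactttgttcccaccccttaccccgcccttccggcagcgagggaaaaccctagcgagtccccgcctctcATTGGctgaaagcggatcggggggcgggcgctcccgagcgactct
Sc5d (chr9:42264301-42264450, minus strand): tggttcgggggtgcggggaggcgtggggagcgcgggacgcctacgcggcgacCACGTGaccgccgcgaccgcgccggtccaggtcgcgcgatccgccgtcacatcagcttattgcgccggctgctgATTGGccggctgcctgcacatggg
Insig1 (chr5:28071262-28071362, plus strand): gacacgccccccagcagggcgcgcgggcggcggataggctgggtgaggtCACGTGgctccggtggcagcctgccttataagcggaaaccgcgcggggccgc
Fasn (chr11:120824548-120824697, minus strand): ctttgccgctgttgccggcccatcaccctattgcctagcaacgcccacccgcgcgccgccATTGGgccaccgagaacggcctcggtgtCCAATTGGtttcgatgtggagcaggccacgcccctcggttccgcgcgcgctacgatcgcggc
The sterol core was in the window of 1 of the 23 genes, Hmgcs1, 137 bases before the start, against 1.436% of the 27025 genes in the table. CCAAT was in 19 of the 23 (82.609%), against 41.058% of genes, and CACGTG in 4 (Dhcr7, Hsd17b7, Insig1 and Sc5d; 17.391%), against 8.093%. These matches are a description of the letters in a short window, and no binding was measured here.

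Per kilobase of exon, averaged over the 12 libraries, the desaturase Scd2 was the most abundant member at 127 CPM per kb, followed by Acly (ATP citrate lyase, which makes cytosolic acetyl-CoA) at 116, the fatty acid synthase Fasn at 66.95 and the HMG-CoA synthase Hmgcs1 at 51.5. The SREBP gene Srebf2 stood at 41.6 CPM per kb and Srebf1 at 11.2. At the low end were the lanosterol-pathway reductase Tm7sf2 at 1.99, Fdps (farnesyl diphosphate synthase) at 3.46 and Idi1 (isopentenyl diphosphate isomerase) at 4.09 CPM per kb. Exon length here counts every annotated exon base of a gene once, over all its transcripts. It can exceed the length of the transcript present, so the order between genes is approximate. The genes lie on many chromosomes, with close neighbours on chromosome 19: Scd2 (chr19:44293674-44306864) beside Scd1 (chr19:44394455-44407879), and Fads2 (chr19:10062765-10101746) beside Fads1 (chr19:10182888-10196877), in GENCODE M21 on GRCm38. In that annotation Fdps shares 26.711% of its exon bases with Gm43738 and Tm7sf2 shares 12.083% with Vps51 on the same strand, so reads of these 2 genes may have been split or dropped. Fdft1 shares 18.311% of its exon bases with Ctsb, Hmgcs1 12.125% with Gm48342 and Idi1 9.215% with Gm48574 on the opposite strand, and the strand setting of the counting is not given in the sources used here.

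**Figure D1:**
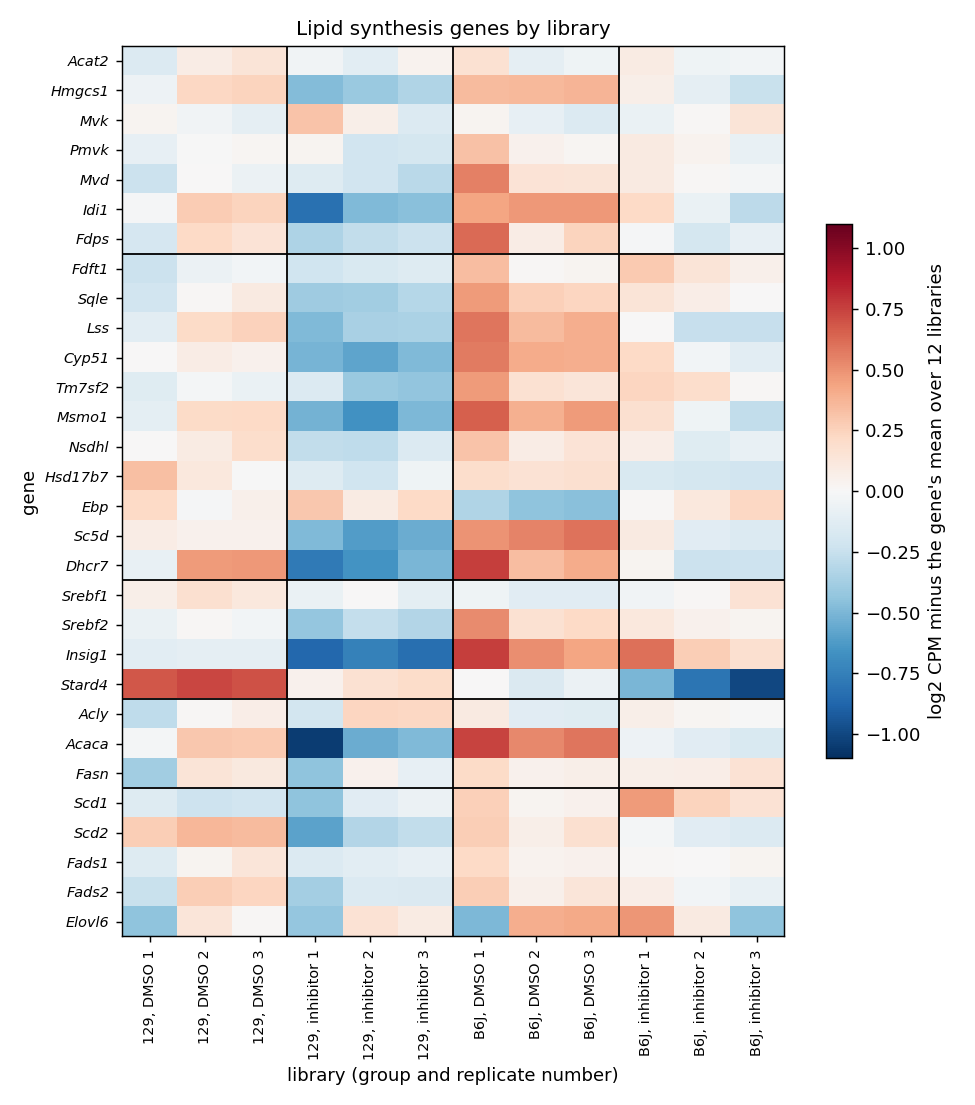
Levels of the 30 genes (rows, grouped by list) in the 12 libraries (columns), as log2 CPM minus the mean of each gene over all libraries; red is above and blue below that mean. The 3 libraries of 129 with the inhibitor hold the lowest values of many sterol genes, among them Insig1 at 44.7 to 48.7 CPM, while Stard4 is lowest in B6J with the inhibitor.

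In 129 cells the inhibitor lowered 15 of the 30 genes and raised 0, at an adjusted p under 0.05 over the 16627 genes tested. Over all those genes 18.2% were lower and 17.4% higher. Of the members 26 had a log2 fold change below 0, with a median of -0.32 against -0.01 for all genes, and the range ran from -0.95 (Dhcr7) to 0.16 (Acly). The count was highest from squalene to sterol, also the largest list, where 8 of 11 fell (Sqle, Lss, Cyp51, Msmo1, Nsdhl, Hsd17b7, Sc5d and Dhcr7). Of the regulators and carrier 3 of 4 fell (Srebf2, Insig1, Stard4), of the mevalonate genes 2 of 7 (Hmgcs1, Idi1), of fatty acid synthesis 1 of 3 (Acaca) and of desaturation and elongation 1 of 5 (Scd2).

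Dhcr7, the reductase that yields cholesterol in the last step of one branch, was at 47.2, 69.2 and 69.7 CPM in 129 with DMSO and at 29.2, 31.8 and 35.3 CPM with the inhibitor. The groups did not overlap, and the lowest DMSO value was that of replicate 1, the library that lay apart. Its log2 fold change was -0.95 (SE 0.161, adjusted p = 0.000889), a level 1.93-fold lower. Sc5d, the sterol desaturase one step before it, read 34.4, 33.5 and 33.5 CPM and then 23.2, 21.1 and 22.3 CPM, with a log2 fold change of -0.61 (SE 0.0808, adjusted p = 0.000178). The DMSO libraries of Sc5d lay close together, unlike those of Dhcr7. Earlier in the branch, the lanosterol demethylase Cyp51 went from 102 ± 2.62 to 69 ± 2.39 CPM (SD, n = 3) and the methylsterol oxidase Msmo1 from 85.3 ± 10.3 to 53.5 ± 3.48 CPM, with log2 fold changes of -0.57 and -0.67. Lss, which closes the ring to lanosterol, changed by -0.52. Smaller falls were those of Sqle, the epoxidase that oxidises squalene (-0.33, adjusted p = 0.0127), Nsdhl (-0.33, adjusted p = 0.0134) and Hsd17b7 (-0.29, adjusted p = 0.0278), which act together in sterol demethylation. The call of Hsd17b7 was lost in 7 of the 22 alternatives, and without replicate 1 of 129 with DMSO its change was -0.19 (adjusted p = 0.0815). Fdft1 (squalene synthase), Tm7sf2 and the sterol isomerase Ebp did not pass the test, at -0.07, -0.25 and 0.11.

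Of the mevalonate genes, Idi1 was at 13.7, 16.7 and 16.3 CPM in 129 with DMSO and at 7.83, 9.83 and 10.04 CPM with the inhibitor. No library of the first group reached down to the second, and the log2 fold change was -0.75 (SE 0.143, adjusted p = 0.00184). Hmgcs1, which makes HMG-CoA, went from 257 ± 28.7 to 175 ± 8.78 CPM (SD, n = 3; log2 fold change -0.55, adjusted p = 0.000925). The thiolase Acat2 and the kinases and decarboxylase Mvk, Pmvk and Mvd lay between -0.12 and 0.12 and were not called. Fdps stood at 15.1 ± 2.15 and 11.8 ± 0.425 CPM (-0.35, adjusted p = 0.0797). With the replicate numbers as a block, 16 genes were lower in 129, though the numbers are not shown to pair every library. The share of all tested genes called with the block was not computed. Fdps (adjusted p = 0.0439) and Fads2 (adjusted p = 0.019) passed and Hsd17b7 did not (adjusted p = 0.051). The other 14 were those named above.

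Insig1, the sterol sensor partner that holds SREBP back and is itself an SREBP target, was at 74.95, 76.0 and 75.9 CPM in 129 with DMSO. In the inhibitor its libraries read 44.7, 48.7 and 45.9 CPM, a log2 fold change of -0.70 (SE 0.112, adjusted p = 0.000603) with both groups tight and far apart. Srebf2 was at 280.2, 296.5 and 287.6 CPM in DMSO and at 219.9, 246.2 and 235.3 CPM in the inhibitor. The difference was smaller than that of Insig1, -0.30 (SE 0.0872, adjusted p = 0.0194). Srebf1 read 65.7, 71.1 and 68.1 CPM and then 59.65, 63.01 and 58.5 CPM. These groups did not overlap either, but the change of -0.18 was not called (adjusted p = 0.0653). Stard4, a carrier that moves cholesterol between membranes, was at 57.9, 60.2 and 58.6 CPM and then at 37.2, 40.4 and 41.5 CPM (-0.57, adjusted p = 0.00214).

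Among the fatty acid genes 2 of 8 fell in 129, a count near the 18.2% of all tested genes that were lower. Acaca, the acetyl-CoA carboxylase that makes malonyl-CoA, was at 82.2, 102 and 102 CPM with DMSO and at 40.4, 57.1 and 59.5 CPM with the inhibitor. In both groups replicate 1 was the lowest, and the log2 fold change was -0.87 (SE 0.137, adjusted p = 0.000558), a 1.82-fold lower level. Scd2, a desaturase that makes monounsaturated fatty acids, was at 820.5, 876.2 and 865.5 CPM and then at 453.5, 543.8 and 565.5 CPM (-0.71, SE 0.0861, adjusted p = 8.86e-05). Its paralog Scd1 was at 92.9 ± 2.89 and 92.3 ± 12.5 CPM (SD, n = 3) and was not called (-0.01). Acly, Fasn, Fads1, Fads2 and the elongase Elovl6 were not called either, with log2 fold changes between -0.33 (Fads2, adjusted p = 0.0633) and 0.16 (Acly). Elovl6 varied most within groups, from 109 to 163 CPM in 129 with DMSO and from 105 to 198 CPM in B6J with DMSO. Its lowest value in each of the 4 groups was that of the library that lay apart (109, 110, 105 and 109 CPM), against 149.5 CPM or more in the other 8 libraries.

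In B6J cells the inhibitor lowered 13 of the 30 genes and raised 1, Ebp. Over all tested genes 16.5% were lower and 14.6% higher in that comparison. Log2 fold changes of the members ran from -0.74 (Acaca) to 0.53 (Ebp), 24 of them below 0, with a median of -0.24 against 0.00234 for all genes. The members' median was -0.15 without replicate 1 of B6J with DMSO and -0.12 without the 4 libraries that lay apart. Of the squalene to sterol genes 6 of 11 fell (Lss, Cyp51, Msmo1, Hsd17b7, Sc5d, Dhcr7), of the mevalonate genes 3 of 7 (Hmgcs1, Idi1, Fdps) and of the regulators and carrier 2 of 4 (Srebf2, Stard4). Acaca and Scd2 were again the only called genes of the fatty acid lists.

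Acaca was at 139, 120.2 and 125 CPM in B6J with DMSO and at 80.2, 76.5 and 74.4 CPM with the inhibitor (log2 fold change -0.74, SE 0.136, adjusted p = 0.00174). No inhibitor library came near the lowest DMSO library. Stard4 was at 36.1, 32.4 and 34.5 CPM with DMSO and at 25.5, 20.7 and 18.03 CPM with the inhibitor, a change of -0.68 (SE 0.111, adjusted p = 0.000719). Dhcr7 read 84.7, 63.3 and 66.4 CPM and then 50.97, 42.4 and 42.7 CPM (-0.65, SE 0.16, adjusted p = 0.00892), again without overlap. Lss was at 94.3, 79.8 and 82.5 CPM and then at 62.8, 52.4 and 52.7 CPM. Its log2 fold change was -0.61 (SE 0.112, adjusted p = 0.00159), next to that of Sc5d, which went from 45.6, 47.3 and 49 CPM to 34.8, 29.7 and 29.1 CPM (-0.60, SE 0.0805, adjusted p = 0.000187). Hmgcs1 changed by -0.45, Idi1 by -0.50, Cyp51 by -0.43, Msmo1 by -0.55 and Hsd17b7 by -0.36. The calls of Fdps, Scd2 and Idi1 in B6J were lost in 10, 6 and 5 of the 22 alternatives; without replicate 1 of B6J with DMSO Fdps was at -0.27 (adjusted p = 0.152) and Scd2 at -0.22 (adjusted p = 0.098), and without replicate 3 of B6J with the inhibitor Idi1 was at -0.38 (adjusted p = 0.0827).

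Ebp, the isomerase that shifts the sterol ring double bond, moved the other way in B6J. Its libraries read 21.8, 20.2 and 19.95 CPM with DMSO and 27.6, 29.7 and 32.2 CPM with the inhibitor, a log2 fold change of 0.53 (SE 0.0913, adjusted p = 0.00107) and 1.44-fold. In 129 it was already at 31.96, 27.2 and 28.5 CPM with DMSO and at 33.6, 29.2 and 31.9 CPM with the inhibitor, so the B6J libraries with DMSO alone were low.

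Of the SREBP genes in B6J, Srebf2 was at 422.4, 331.6 and 343.3 CPM with DMSO and at 319.3, 303.4 and 300.1 CPM with the inhibitor. The groups did not overlap, and the change of -0.25 was just called (SE 0.0872, adjusted p = 0.0482). That call was lost in 12 of the 22 alternatives, and without replicate 1 of B6J with DMSO the change was -0.14 (adjusted p = 0.136). Insig1 was at 138, 116 and 110.3 CPM and then at 124, 98.3 and 91.8 CPM; the groups overlapped and the change of -0.22 was not called (adjusted p = 0.17). Srebf1 read 60.7, 57.8 and 57.6 CPM and then 61.3, 63.3 and 70.05 CPM (0.14, adjusted p = 0.139). Its direction was therefore opposite in the 2 genotypes, with neither change called.

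**Figure D2:**
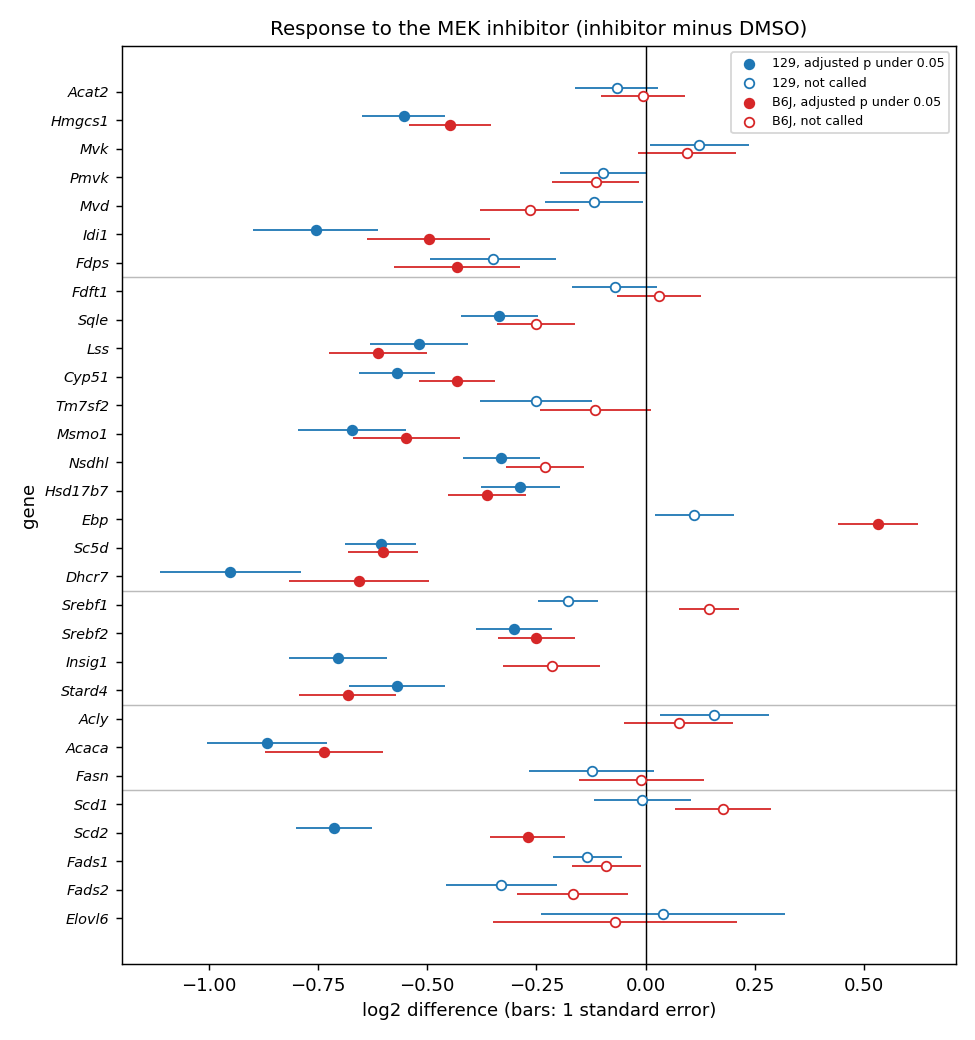
Log2 difference between inhibitor and DMSO for each of the 30 genes in 129 (blue) and B6J (red), with bars of 1 standard error; filled points have an adjusted p under 0.05. Most points lie left of 0 in both genotypes, Ebp in B6J is the 1 called rise at 0.53, and Scd2 and Insig1 lie further left in 129.

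Both comparisons called 12 genes lower: Acaca, Cyp51, Dhcr7, Hmgcs1, Hsd17b7, Idi1, Lss, Msmo1, Sc5d, Scd2, Srebf2 and Stard4. They are 12 of the 15 lower genes of 129 and 12 of the 13 of B6J. Insig1, Nsdhl and Sqle were called in 129 alone, Fdps and Ebp in B6J alone, and 13 in neither. The 2 responses share no library. Across the 30 genes their log2 fold changes had a Pearson r of 0.845, with 26 of 30 of the same sign. That is a description over genes that are not independent. The shared calls, r and shared signs were not computed over all tested genes, so the likeness is not shown to be particular to these genes.

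The test of the difference itself, the response in B6J minus that in 129, called 0 of the 30 genes with edgeR, against 1.48% of all tested genes. Limma-voom also called 0 and DESeq2 called 2 (Srebf1, adjusted p = 0.0452, and Scd2, adjusted p = 0.0337). In edgeR 4 genes had an unadjusted p under 0.05, each with a higher value in B6J. Shares of all tested genes were not computed for DESeq2 or for the unadjusted p. The 1.48% is therefore no measure for these counts. The 4 genes were Insig1 with a difference of 0.49 on the log2 scale (95% interval 0.14 to 0.83, edgeR adjusted p = 0.185), Scd2 with 0.44 (0.18 to 0.71, adjusted p = 0.111), Ebp with 0.42 (0.14 to 0.70, adjusted p = 0.16) and Srebf1 with 0.32 (0.11 to 0.54, adjusted p = 0.154). For Sc5d the difference was 0.01 with an interval from -0.24 to 0.25, and for Elovl6 -0.11 with an interval from -0.98 to 0.76. With the replicate numbers as a block, edgeR called 1, Insig1 (0.48, adjusted p = 0.0442), though the numbers are not shown to pair every library. Without the 4 libraries that lay apart, 8 genes were called, all higher in B6J: Fdft1, Msmo1, Ebp, Dhcr7, Srebf1, Insig1, Scd2 and Fads2. The shares of all tested genes called with the block and without those libraries were not computed, so neither count can be set against them.

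**Figure D3:**
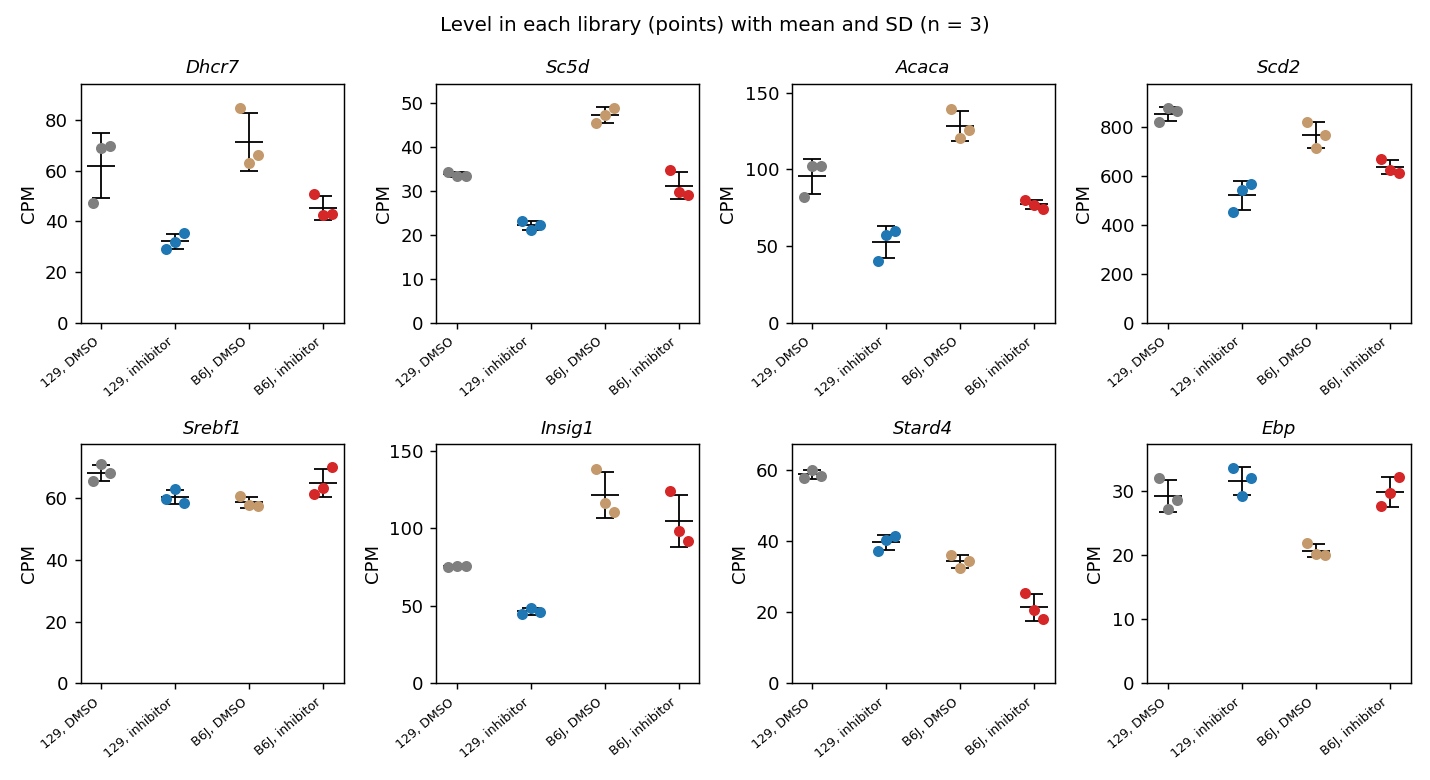
CPM in each library (points) of 8 of the genes in the 4 groups, with the mean and SD of 3 libraries; each axis starts at 0. Dhcr7, Sc5d, Acaca, Scd2 and Stard4 are lower with the inhibitor in both genotypes, Insig1 is lower with the inhibitor by the test in 129 and was not called in B6J, and Ebp is low in B6J with DMSO alone.

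The responses were accompanied by a change in markers of another cell type. Fibroblasts are used as feeder cells for ES cells, and the labels do not say whether feeders were present. Of the 20 fibroblast markers 15 were higher and 1 lower with the inhibitor in 129, and 12 were higher and 0 lower in B6J; none was at 0. Their summed level was 3259 to 6454 CPM in 129 with DMSO and 7419 to 11810 with the inhibitor, and 4624 to 5585 and 6725 to 11290 CPM in B6J. Of the 10 ES cell markers 7 were higher and 0 lower in 129, and 6 were higher and 1 lower in B6J. Their summed level went from 3273 to 4623 CPM with DMSO to 5674 to 6042 CPM with the inhibitor in 129, and from 4020 to 4960 CPM to 5486 to 5914 CPM in B6J; their part in the results was not tested. The summed level of the 18 sterol enzymes was 1007, 1159 and 1175 CPM in 129 with DMSO and 844, 832 and 874 CPM with the inhibitor. In B6J it was 1430, 1260 and 1278 CPM and then 1151, 1034 and 986 CPM, so neither genotype's groups overlapped. The 8 fatty acid enzymes summed to 2272, 2784 and 2769 CPM and then 1847, 2442 and 2390 CPM in 129, which overlap, and to 2569 to 2827 CPM and 2455 to 2623 CPM in B6J, which also overlap. In bulk RNA fewer cells of a type and less RNA per cell cannot be told apart.

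With the mean log2 level of the fibroblast markers as a covariate, the lower genes numbered 9 in 129, with 1 higher (Acly), and 7 in B6J, with 3 higher (Ebp, Acly and Fasn). The median of the 30 genes was then -0.16 in 129 and -0.09 in B6J. The shares of all tested genes called with the covariate were not computed, so these counts cannot be set against them. In 129 Hmgcs1, Idi1, Cyp51, Hsd17b7, Sc5d, Dhcr7, Insig1, Acaca and Scd2 were lower with the covariate, while Sqle, Lss, Msmo1, Nsdhl, Srebf2 and Stard4 did not pass. The log2 fold changes of 4 of those still called were over 1.5 times smaller with it: Dhcr7 -0.44, Idi1 -0.38, Hmgcs1 -0.28 and Acaca -0.49. Hsd17b7 went further from 0, to -0.43. In B6J Hmgcs1, Lss, Cyp51, Hsd17b7, Sc5d, Stard4 and Acaca were lower with it, while Idi1, Fdps, Msmo1, Dhcr7, Srebf2 and Scd2 did not pass. There Hmgcs1 (-0.23), Lss (-0.35) and Acaca (-0.42) were smaller by the same measure. The markers rose with the treatment itself, so the covariate and the treatment share part of their variation, and the markers' part in the results was not tested further. Without the 4 libraries that lay apart, 22 genes were lower and 1 higher (Acly) in 129, and 14 lower and 4 higher (Ebp, Fdft1, Acly, Scd1) in B6J. The shares of all tested genes called without those libraries were not computed.

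**Figure D4:**
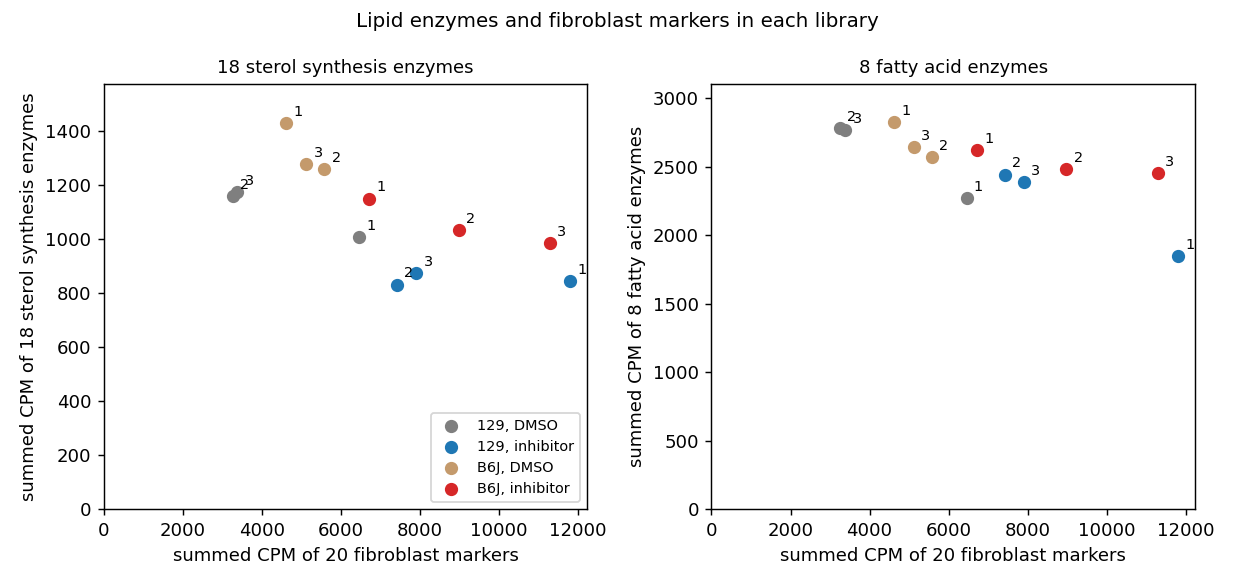
Summed CPM of the 18 sterol synthesis enzymes (left) and the 8 fatty acid enzymes (right) against the summed CPM of 20 fibroblast markers, 1 point per library, numbered by replicate. Libraries with the inhibitor lie at higher marker sums; the sterol sums of 129 with the inhibitor (832 to 874 CPM) lie below all the others.

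The genotypes differed in both media. In DMSO 8 of the 30 genes were higher in B6J than in 129 (Mvd, Sqle, Cyp51, Msmo1, Sc5d, Srebf2, Insig1, Acaca), against 10.4% of all tested genes, and 3 were lower (Ebp, Srebf1, Stard4), against 10.5%. The median log2 difference was 0.23 over the members and -0.01 over all genes. The members' median was 0.11 without replicate 1 of B6J with DMSO, 0.13 without replicate 1 of 129 with DMSO and 0.0879 without the 4 libraries that lay apart. In the inhibitor 13 were higher in B6J, against 8.90%, and 1 was lower, Stard4, against 9.47%, with a median of 0.25 against -0.00777. The 13 were Hmgcs1, Idi1, Fdft1, Sqle, Cyp51, Tm7sf2, Msmo1, Sc5d, Srebf2, Insig1, Acaca, Scd1 and Scd2. These comparisons use the same libraries as the responses and are not independent of them.

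In the inhibitor Insig1 differed most of the 30 genes, and in DMSO Stard4 did. From the library values above, every B6J library with DMSO (110.3 to 138 CPM) exceeded every 129 library (74.95 to 76.0 CPM), with a log2 difference of 0.68 (SE 0.112, adjusted p = 0.00125). In the inhibitor the difference was 1.17 (SE 0.113, adjusted p = 2.98e-05), 2.25-fold, with 91.8 CPM the lowest B6J library and 48.7 CPM the highest of 129. Stard4 went the other way, at -0.78 in DMSO (SE 0.11, adjusted p = 0.000494) and -0.89 in the inhibitor (SE 0.111, adjusted p = 0.000196). Ebp was lower in B6J with DMSO (-0.50, SE 0.0914, adjusted p = 0.00246) but not called in the inhibitor (-0.08, adjusted p = 0.627). Sc5d was higher in B6J by 0.49 in each medium (adjusted p = 0.00134 and 0.00133), and Srebf2 by 0.34 and 0.40.

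Acaca was higher in B6J by 0.43 in DMSO (SE 0.136, adjusted p = 0.0445) and by 0.56 in the inhibitor (SE 0.136, adjusted p = 0.0137). The DMSO call of Acaca was lost in 13 of the 22 alternatives, 10 of them the omission of a single library. Msmo1 in DMSO and Scd2 in the inhibitor each lost their call in 10, and Srebf1 in DMSO and Hmgcs1 in the inhibitor each in 8. Cyp51 was at 99.7, 105 and 103 CPM in 129 with DMSO and at 148, 132 and 131 CPM in B6J. In the inhibitor it read 69.5, 66.4 and 71.1 CPM in 129 and 115, 97.1 and 91.6 CPM in B6J, with differences of 0.42 and 0.55 (adjusted p = 0.00553 and 0.000991). Its libraries did not overlap between genotypes in either medium. Idi1 was called in the inhibitor alone (0.55, SE 0.142, adjusted p = 0.0191), where the 3 B6J libraries read 16.1, 13.1 and 11.3 CPM. Scd1 was higher in B6J by 0.50 in the inhibitor (adjusted p = 0.0085), and its 0.31 in DMSO was not called (adjusted p = 0.0688).

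Both counts changed with the libraries used. When only the 6 DMSO libraries were fitted, 4 genes were higher in B6J, and without replicate 1 of B6J with DMSO 4 were higher too (5 without replicate 1 or 3 of 129 with DMSO). In the inhibitor 8 were higher when replicate 1 or 2 of the treated B6J libraries was left out, and 9 when replicate 1 or 2 of the treated 129 libraries was. Without the 4 libraries that lay apart, 10 were higher and 7 lower in DMSO, and 18 higher and 2 lower in the inhibitor. With the fibroblast covariate 15 were higher in DMSO and 17 in the inhibitor. Shares over all tested genes were not computed for any of these settings, so none of these counts can be set against one.

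**Figure D5:**
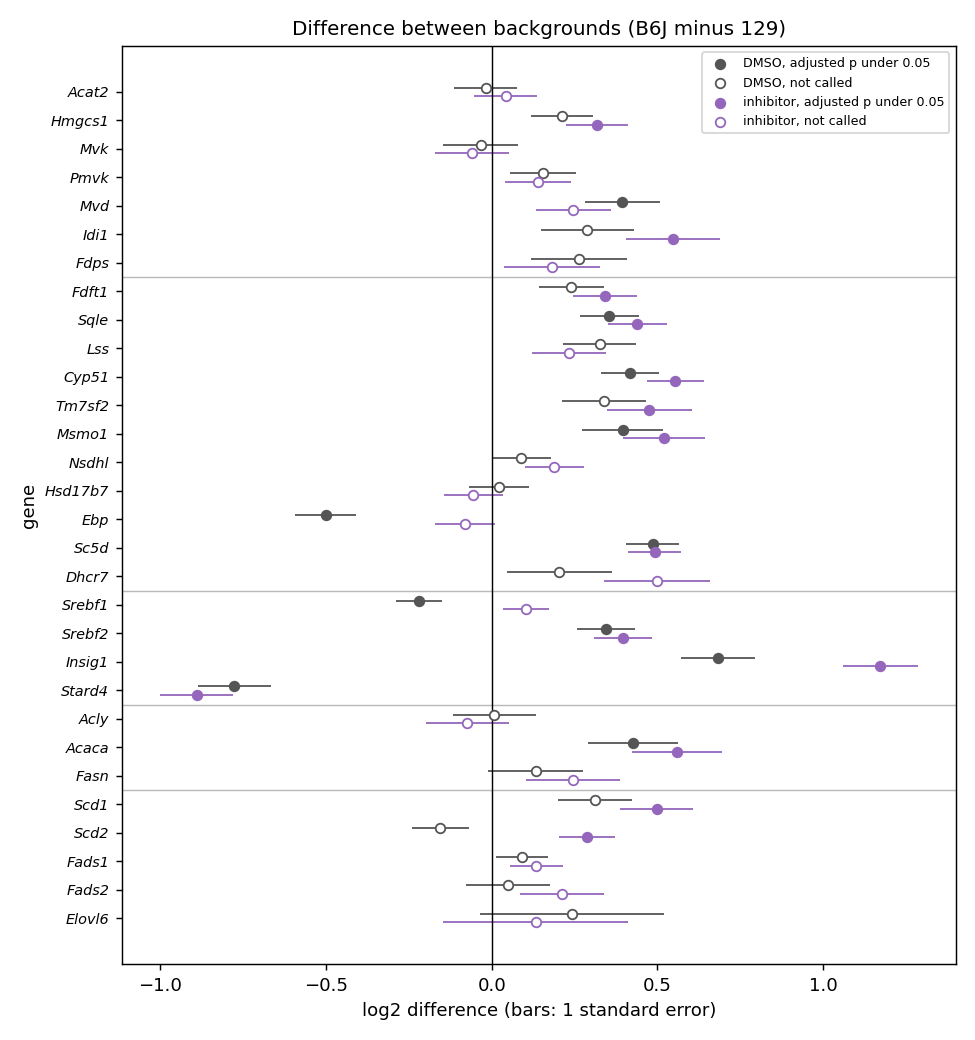
Log2 difference between B6J and 129 for each of the 30 genes in DMSO (grey) and in the inhibitor (purple), with bars of 1 standard error; filled points have an adjusted p under 0.05. Most points lie right of 0; Insig1 reaches 1.17 in the inhibitor, while Stard4 lies at -0.78 and -0.89 and Ebp at -0.50 in DMSO.

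Another 38 genes of the pathway, in 7 lists, give the surroundings. In 129 11 of them rose and 7 fell, beside 17.4% and 18.2% of all tested genes, and in B6J 6 rose and 6 fell, beside 14.6% and 16.5%. None of the 4 SREBP processing genes was called in either genotype: Scap, which escorts SREBP, Insig2, and the proteases Mbtps1 and Mbtps2 lay between -0.28 and 0.09 in 129 and between -0.05 and 0.02 in B6J. Soat1, which esterifies cholesterol for storage, changed more than any member, by -2.09 in 129 (SE 0.113, adjusted p = 4.66e-07) and -1.64 in B6J (SE 0.112, adjusted p = 2.1e-06). Of the 5 genes of LXR signalling and efflux, the cholesterol exporter Abca1 rose by 0.71 in 129 and 0.97 in B6J. Mylip, a ubiquitin ligase of this list, rose by 0.66 and 0.93, and the receptor Nr1h2 rose by 0.36 in 129 (0.20, not called, in B6J). Abca1 also separated the genotypes, by -1.52 in DMSO and -1.25 in the inhibitor.

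The acyl-CoA synthetases Acsl3 and Acsl4, which activate long-chain fatty acids, fell in both genotypes, by 1.25 and 1.29 on the log2 scale in 129 and by 0.86 and 1.55 in B6J. Fatty acid oxidation genes moved both ways: 4 of 8 rose and 2 fell in 129, beside 17.4% and 18.2% of all tested genes. In B6J 2 rose and 2 fell, beside 14.6% and 16.5%. Cpt1a, which admits fatty acids to mitochondria, rose by 0.91 and 0.89, and the dehydrogenase Acadm by 0.94 and 0.65. Cpt2 fell by 0.39 and 0.46 and Acadl by 0.64 and 0.56. Of the isoprenoid branches, the farnesyltransferase subunit Fntb rose by 0.83 and 0.74, and its partner Fnta rose by 0.21 in 129. Fnta was at -0.18 in B6J (adjusted p = 0.0653), and the difference between its responses was not called (adjusted p = 0.0795). Acss2, which makes acetyl-CoA from acetate, rose by 0.52 in 129 and was at -0.06 in B6J, and Acacb, the mitochondrial carboxylase, rose by 0.72 in B6J and was at 0.07 in 129; neither difference between the responses was called (adjusted p = 0.126 and 0.172). The remaining calls were rises of Npc2, Hadha and Hadhb and falls of Hacd3 and Hsd17b12 in 129, and a fall of the sterol transporter Npc1 in B6J.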

How the data were processed

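The authors deposited 1 table of whole-number read counts per gene for the 12 libraries, made from a stranded polyA kit per the labels' protocols. STAR 2.7.10, SAMtools, HTSeq 0.6.1p1, DESeq and the builds mm10 and GRCm38 are named per the submitters' processing notes, with no role; for annotation and strand setting, these were not given in the sources used here. The build is a C57BL/6J genome, and its effect on reads of 129 cells was not tested. Low counts (1 to 20) were mostly even numbers, 70.09 to 73.37% by library, and less often so from 101 to 1000 (52.06 to 55.17%), so halved counts were tried.

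All 12 libraries entered 1 edgeR 4.0.16 quasi-likelihood fit (R 4.3.3) with 4 group means, TMM scaling and filterByExpr (min.count 10, min.total.count 15), which kept 16627 genes and all 30 members; the call threshold was a Benjamini-Hochberg adjusted p of 0.05 over all of them. The 5 contrasts were the 2 responses, their difference, and B6J minus 129 in each medium. Alternatives were DESeq2 1.42.0, limma-voom 3.58.1, RLE size factors, 2 other filters, fits of the groups compared alone, a replicate block, halved counts, a fibroblast marker covariate, and left-out libraries. Same-numbered 129 libraries deviated together (r of 0.442, 0.295 and 0.222 over genes). Replicates 2 and 3 of 129 did so nearly as much across numbers (r of 0.209 and 0.194). The numbers thus set replicate 1 apart and are not shown to pair the others. In B6J the same-number r was -0.188, 0.0883 and -0.17, which does not pair them. Positions and exon lengths are from GENCODE M21.

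The members and lists were chosen with earlier results of these data known. Values of every library are given for the 5 called members of largest change in each contrast and for Srebf1, Srebf2 and Insig1. Further lists, by name, were SREBP processing, sterol traffic and esterification, LXR and efflux, isoprenoid branches, acetyl-CoA and NADPH supply, other elongation and acyl-CoA genes, fatty acid oxidation, and the ES cell, fibroblast, primitive endoderm and MEK/ERK target markers (9 of 10 of the last fell in each genotype).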

Additional observations from a re-analysis of the deposited data

How the results depend on the processing

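Of the called genes, 8 of 15 in the 129 response (Hmgcs1, Idi1, Cyp51, Sc5d, Dhcr7, Insig1, Acaca, Scd2) and 8 of 14 in the B6J response (Hmgcs1, Lss, Cyp51, Hsd17b7, Ebp, Sc5d, Stard4, Acaca) were called under every alternative run, as were 5 of 11 between genotypes in DMSO and 9 of 14 in the inhibitor. With the fibroblast covariate the lower genes numbered 9 in 129 and 7 in B6J, the higher ones 1 and 3 (Fasn in B6J turned to 0.34, adjusted p = 0.0436), those higher in B6J with DMSO 15, and those called in the difference of responses 2; the cause was not tested. Without the 4 libraries that lay apart the responses gave 22 lower and 1 higher in 129 and 4 higher in B6J. The comparison in DMSO gave 7 lower (Acly turned to -0.17 and Fads2 to -0.16), that in the inhibitor 2 lower, and the difference of responses 8. Those fits keep the closest libraries of each group, so their spread is narrow by choice, and the cause was not tested. The replicate block called 1 gene in the difference of responses (Insig1) and DESeq2 called 2. Only the DMSO groups gave 4 higher in B6J; fewer samples entered that fit. Leaving out 1 library at a time gave 13 to 18 lower and 0 to 1 higher in 129, 9 to 14 lower in B6J (9 without B6J inhibitor replicate 2 or 3, or B6J DMSO replicate 3), 4 to 9 higher in DMSO (4 without B6J DMSO replicate 1, 5 without 129 DMSO replicate 1 or 3), 2 to 3 lower in DMSO, and 8 to 14 higher in the inhibitor. The last was 8 without B6J inhibitor replicate 1 or 2, and the lone higher gene in 129 came without 129 inhibitor replicate 1. In the comparisons between genotypes the replicate block gave 6 higher and 2 lower in DMSO and 10 higher in the inhibitor. The numbers do not pair libraries across genotypes. Same-number r was -0.0579, 0.00589 and -0.0732 in DMSO, and -0.32, 0.0161 and -0.094 in the inhibitor. In the B6J response, where the numbers do not pair the libraries either, the block gave 16 lower. Genes called under neither setting that changed sign were not counted as changed. Shares of all tested genes called were computed for the main fit alone, so no count from an alternative can be set against one. Depth did not limit the members, each with at least 430 counts in every library.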
